A study of Ambystoma mexicanum with 17 samples.

Results

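The 100 genes described here are those whose stage medians rose in order from stage 37/38 through 39 to 41 in explants of axolotl (Ambystoma mexicanum) oropharyngeal endoderm, with the largest rise over the whole interval. They were chosen by their measured values in the same 17 RNA-seq libraries. Counts were scaled to the same column total of 1000000 (CPM) and turned into log2(CPM + 10). A gene had to have a summed count of at least 100 and a count in at least 9 libraries, which 2931 of the 19649 genes of the table did. Of these, 500 had stage medians rising in order, and the 100 with the largest difference between the medians of stages 41 and 37/38 are the members. Members are numbered by rank of that difference. The rise is thus the rule and not a finding.

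The libraries are 6 of stage 37/38, 6 of stage 39 and 5 of stage 41. All came from stock center embryos raised at 22°C, from which the explant was cut at stage 15 and kept in L-15 medium with serum albumin, penicillin, streptomycin and gentamicin. Stage was read from intact sibling embryos. No genotype, and no treatment that differs between groups, is given. Libraries of a stage are numbered as replicates, with no word on separate embryos, pools or cultures. Their p-values therefore measure the spread between libraries, which may be technical. Total counts ran from 67838 to 748726 per library. A single count was worth 1.34 to 14.7 CPM, and 3 counts, the limit that a count of 0 allows, 4.01 to 44.2 CPM. These limits cover counting error only.

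Oropharyngeal endoderm is the embryonic tissue that lines the later mouth and throat. In the axolotl it gives rise to taste buds, and explants of it can form them in culture without nerves. Stages 37/38 to 41 lie late in embryonic life, around the time when taste buds appear. The sources hold identifiers of a Trinity assembly (a set of transcripts built from the reads themselves) and pair none with a gene name, and 0 of them matched the reference table of axolotl gene symbols. No role, cell type marker or sequence can therefore be given for any member, and the tissue label could not be checked against markers. Identifiers are printed for the members ranked 1 and 2, and the other members are given by rank. In whole explants, fewer cells of a type and less RNA per cell cannot be told apart.

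The rising order was 1 of several orders, and not the most frequent. It was taken by 17.1% of the 2931 genes, against 19.4% (569 genes) with medians falling in order. The median of stage 39 was the highest in 27.0% and the lowest in 35.4%. Each of these last shares pools 2 orders, since stages 37/38 and 41 can stand either way. They are therefore not set against the shares of the single orders. In 1.09% at least 2 medians were equal. The largest difference was 5.15 on the log2(CPM + 10) scale among rising genes and 4.82 in size among falling genes. The 100th largest was 2.05 and 2.32. A difference of at least 2 was held by 107 rising and 140 falling genes. The member ranked 100 had medians of 4.02, 4.49 and 6.07 at stages 37/38, 39 and 41. The gene next in rank, just outside, had 4.57, 5.46 and 6.62 and a difference of 2.04. Members and the genes next to them are thus parts of 1 continuous range.

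**Figure D1:**
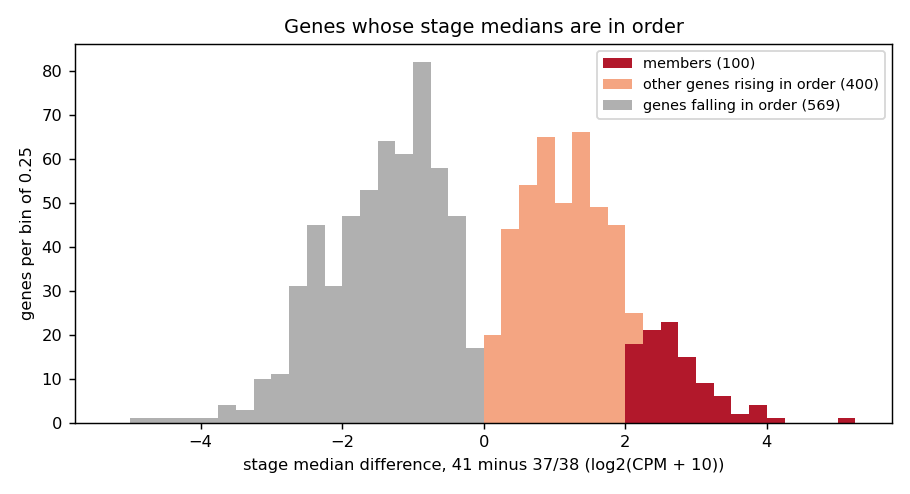
Histogram of the difference between stage medians, 41 minus 37/38, on the log2(CPM + 10) scale (x axis) for genes whose 3 stage medians are in order, in bins of equal width (y axis, genes per bin). The 100 members form the right end of the 500 rising genes, and the 569 falling genes reach differences of similar size on the left.

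Over the 100 members the median difference between stages 41 and 37/38 was 2.62, beside -0.04 over all 2931 genes. The median step from stage 37/38 to 39 was 1.43 and that from 39 to 41 was 1.22. The earlier step was the larger in 55 members and the later in 45. In 34 members 1 of the steps was under 0.5, and most of the rise lay in the other. The steps ranged over the members between 0.02 and 4.19 for the earlier and between 0.03 and 3.27 for the later.

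Counts at stage 37/38 were low or absent in most members. In 41 members the stage 37/38 median was 0 CPM, as it was in 4.88% of the 2931 genes. The rule favours this, since it asks for a low median at that stage. In 94 members it lay under 41.8 CPM, the level of 3 counts in the shallowest library of that stage. Over the members the median of the stage medians was 3.17 CPM at stage 37/38, 27.6 CPM at stage 39 and 73.9 CPM at stage 41. No member was without a count at stage 37/38 as a whole, since each had counts in at least 1 of its 6 libraries, and 74 had counts in 3 or fewer. At stage 41, 33 members had counts in every library, 46 in 4 of 5 and 21 in 3 of 5. The summed count over the 17 libraries was under 300 in 72 members, and its median was 227.5 over the members beside 229 over the 2931 genes. For the 94, 74 and 72 members the matching shares of the 2931 genes were not worked out. Nor were they for the 33, 46 and 21 members at stage 41. These counts are therefore not read as particular to the members.

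**Figure D2:**
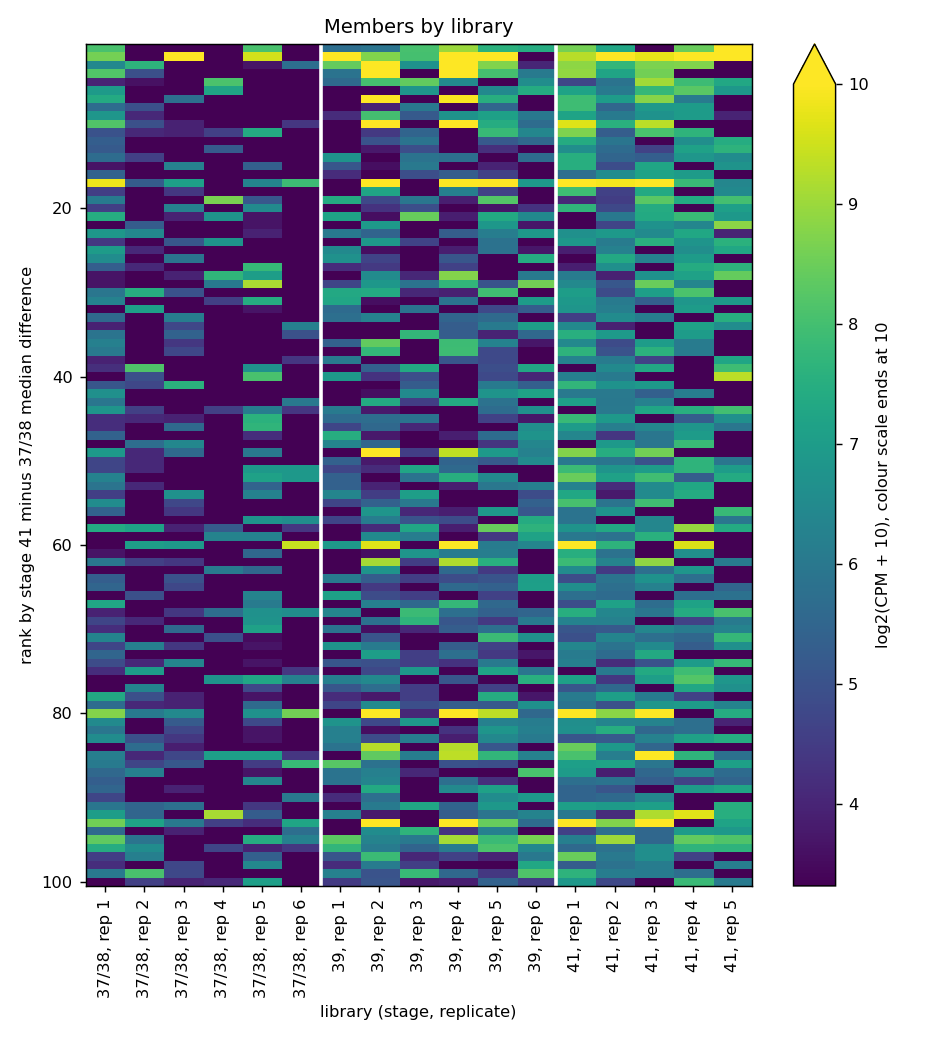
Level of each member (rows, ranked by the difference between stages 41 and 37/38) in each of the 17 libraries (columns, by stage and replicate), as log2(CPM + 10), with the darkest colour at a count of 0 and the colour scale ending at 10. White lines part the stages. Counts at stage 37/38 are patchy and replicate 1 of that stage is the fullest, while single rows stand out in stage 39 replicates 2 and 4.

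The member ranked 1, TRINITY_DN10247_c0_g2, had no count in 4 of the 6 stage 37/38 libraries and 260.0 and 262 CPM in replicates 1 and 5. At stage 39 it had 42.8 to 502 CPM, with a median of 173 CPM. At stage 41 it had 377, 145, 0, 344 and 1046 CPM in replicates 1 to 5. The stages overlapped: 3 of the 5 stage 41 libraries lay above every stage 37/38 library, and 1 stage 41 library had no count. On the log2(CPM + 10) scale its medians were 3.32, 7.52 and 8.47 in stage order. The log2 fold change fitted by edgeR over mean levels was 2.13 (SE 1.27) for stage 41 against 37/38, well under the difference of 5.15 between the medians. Its mean was 382 ± 401 CPM at stage 41 (SD, n = 5) and 87.0 ± 134.8 CPM at stage 37/38 (SD, n = 6). It shares its assembly component with another gene, and reads could be divided between them.

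The member ranked 2, TRINITY_DN19620_c0_g1, had 0 CPM in 3 stage 37/38 libraries and 381, 1165 and 732 CPM in replicates 1, 3 and 5. At stage 39 it ranged from 0 to 3209 CPM with a median of 1193 CPM. At stage 41 it had 609, 1127, 866, 26548.7 and 3098 CPM in replicates 1 to 5. A single library stands apart, since 62.4% of its CPM summed over all libraries came from stage 41 replicate 4. Its fitted log2 fold change for stage 41 against 37/38 was 4.01 (SE 1.47), and 1.67 without that library. Its medians on the log2 scale were 5.97, 9.85 and 10.15, while its median CPM was 1127 at stage 41 and 1193 at stage 39. The median of 6 libraries is the mean of the middle pair, which lies lower after a log, and in 7 of the 100 members the median CPM did not rise in order although the medians of the rule did.

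The member ranked 3 was present in more libraries. It had 0 to 190 CPM at stage 37/38 with a median of 23.2 CPM. At stage 39 it had 6.36 to 1292 CPM with a median of 375 CPM. At stage 41 it had 454, 206, 400, 413 and 0 CPM in replicates 1 to 5. The first 4 of these lay above every stage 37/38 library and the last had no count. The step from stage 39 to 41 was 0.10 on the log2 scale, against 3.87 for the step before it.

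The member ranked 4 had counts in 2 stage 37/38 libraries, 282 CPM in replicate 1 and 21.1 CPM in replicate 2. Its stage 39 values spread from 0 to 1682 CPM, with 1459 CPM in replicate 2 and 1682 CPM in replicate 4 and at most 252 CPM in the other 4 libraries. At stage 41 it had 473, 140.2 and 371 CPM in replicates 1, 2 and 3 and no count in replicates 4 and 5. The highest library at stage 39 was thus over every stage 41 library.

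The member ranked 5 had 265 CPM in stage 37/38 replicate 4 and 0 to 5.77 CPM in the other 5 libraries of that stage. It had 0 to 328 CPM at stage 39, with a median of 85.0 CPM, and 16.3, 47.9, 528, 229 and 150 CPM in stage 41 replicates 1 to 5. Every stage 41 library had a count, and only replicate 3 lay above every stage 37/38 library.

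**Figure D3:**
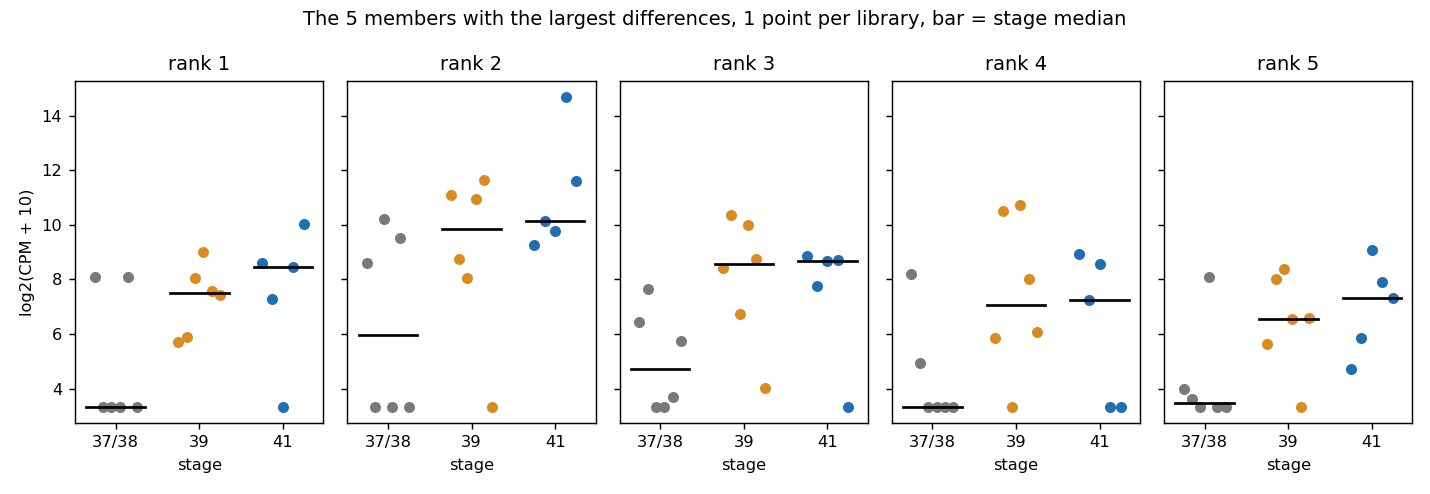
Level as log2(CPM + 10) (y axis) of the members ranked 1 to 5 in each library, by stage (x axis), with 1 point per library and a bar at the stage median. The medians rise from left to right because the rule asks for it, and in each of the 5 the points of stages 37/38 and 41 overlap.

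Ranks 6 to 20 had differences between 3.14 and 3.84. Their stage medians ran from 0 to 99.0 CPM at stage 37/38, from 1.91 to 874 CPM at stage 39 and from 80.1 to 959 CPM at stage 41. No member had a count in all 17 libraries, where 15.7% of the 2931 genes did. The rule asks for a low stage 37/38 median, which disfavours a count in every library. The members with the most complete detection, ranks 85 and 96 with counts in 16 libraries, were picked out after their values were seen. Rank 85 had 7.03 to 127 CPM at stage 37/38, 0 to 634 CPM at stage 39 and 264, 62.8, 1327, 192 and 45.7 CPM in stage 41 replicates 1 to 5. Rank 96 had 0 to 167, 34.2 to 265 and 39.0 to 192 CPM at the 3 stages in order. Both overlapped between all stages.

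Separation of the first and last stage was rare. Every stage 41 library lay above every stage 37/38 library in 1 of the 100 members, beside 0.0682% (2 genes) of the 2931. The choice of members acts on this contrast, so the count is given as a description. That member, at rank 50 and singled out after its values were seen, had 53.7, 50.8, 22.2, 192 and 51.5 CPM in stage 41 replicates 1 to 5, against 16.4 and 7.03 CPM in stage 37/38 replicates 1 and 2 and no count in the other 4. The values rest on 3 to 38 counts per stage 41 library and on 6 counts and 1 count at stage 37/38. A count of 0 in stage 37/38 replicate 4 allows up to 41.8 CPM, which is above the lowest stage 41 value. In 11 members 4 of the 5 stage 41 libraries lay above every stage 37/38 library, in 28 members 3, in 29 members 2, in 13 members 1 and in 18 members none. The highest of the 17 libraries was of stage 41 in 51 members, of stage 39 in 40 and of stage 37/38 in 9. Matching shares of the 2931 genes were not worked out for these counts, nor for the 11, 28, 29, 13 and 18 members. The rule favours high stage 41 values, so none of them is read as particular to the members. Mean CPM, taken from the same values that chose the members, rose in order in 59 of them and was highest at stage 39 in 27.

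In the fits over whole tables, 0 of the 71 members that passed edgeR's filter on low counts were called at an adjusted p under 0.05 in stage 39 against 37/38, stage 41 against 39 or stage 41 against 37/38, where 0% of the 1985 tested genes were called. With the count limits of the rule, which admit all 100 members, 0 members and 0% of 2931 genes were called in each of these. Unadjusted p under 0.05 was held by 87, 47 and 53 of the 1985 genes in that order. DESeq2 called 15, 0 and 2 genes in the same order of comparisons, 1.99%, 0% and 0.101% of the genes it gave an adjusted p. In the first comparison 752 genes and 19 members had an adjusted p, and 4 of the 19 members were called. No member was called in the others. With no count filter, edgeR made calls for 41, 10 and 8 of 16101 genes (0.255%, 0.0621% and 0.0497%), and 10, 0 and 1 of the 100 members. The rule used these contrasts, so nothing is read from the members' counts. The fitted log2 fold change for stage 41 against 37/38 was above 0 in 100 of 100 members with a median of 1.93, beside -0.02 over the 2931 genes. For stage 41 against 39 it was above 0 in 64 members (median 0.43, beside -0.17), and for stage 39 against 37/38 in 88 (median 1.42, beside 0.13). All 3 comparisons share libraries with one another.

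The share of a library's counts that fell in the members differed widely within a stage. It was 0.233% to 0.724% at stage 37/38 with a median of 0.272%, and 0.475% to 3.67% at stage 39 with a median of 0.947%. At stage 41 it was 1.75%, 0.952%, 1.97%, 3.78% and 1.26% in replicates 1 to 5. The Wilson 95% interval was 3.64% to 3.93% for the highest of these and 0.930% to 0.974% for the lowest. Without the member ranked 2 the highest fell to 1.13%. At stage 39, replicates 2 and 4 had 3.30% and 3.67% and the other 4 libraries at most 1.24%. The stages 37/38 and 41 did not overlap in this share, which the choice of members by their medians at these stages favours.

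The rule, which asks for a low median at stage 37/38 and a high one at stage 41, also favours detection at the later stage. Between 22 and 87 of the 100 had a count in a stage 37/38 library, 61 to 90 in a stage 39 library and 63 to 99 in a stage 41 library. Stage 37/38 replicate 1, with 365562 counts, held 87 members at a median level of 5.51 on the log2(CPM + 10) scale, while the other 5 stage 37/38 libraries had 3.32 to 3.92. Replicate 5, with 354480 counts, held 59 members at a median level of 3.68. Replicates 2 and 3, with 142155 and 180452 counts, held 50 and 51 members. Replicates 4 and 6, with 71698 and 91900 counts, held 22 and 24 members. Of the 2931 genes, 95.6%, 80.3%, 81.3%, 56.8%, 82.6% and 69.3% had a count in stage 37/38 replicates 1 to 6. Stage 41 replicate 4 had the lowest total of all libraries and held 74 members, beside 61.7% of the 2931 genes. Over the 2931 genes the share detected averaged 77.7% ± 13.2 in the 6 libraries of stage 37/38, 79.5% ± 9.48 in the 6 of stage 39 and 75.7% ± 15.8 in the 5 of stage 41 (± SD). Each library was also thinned to 60000 counts, a step chosen after the data were seen. After thinning, 97 of the 100 members were higher at stage 41 than at stage 37/38, with a median difference of 2.58, and 72 kept their rising order. The members were chosen for this difference in the same counts, and the count limits stayed those of the unthinned libraries. A part of depth in the members' medians was therefore not tested. The same rule then chose 58 of the 100 again.

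**Figure D4:**
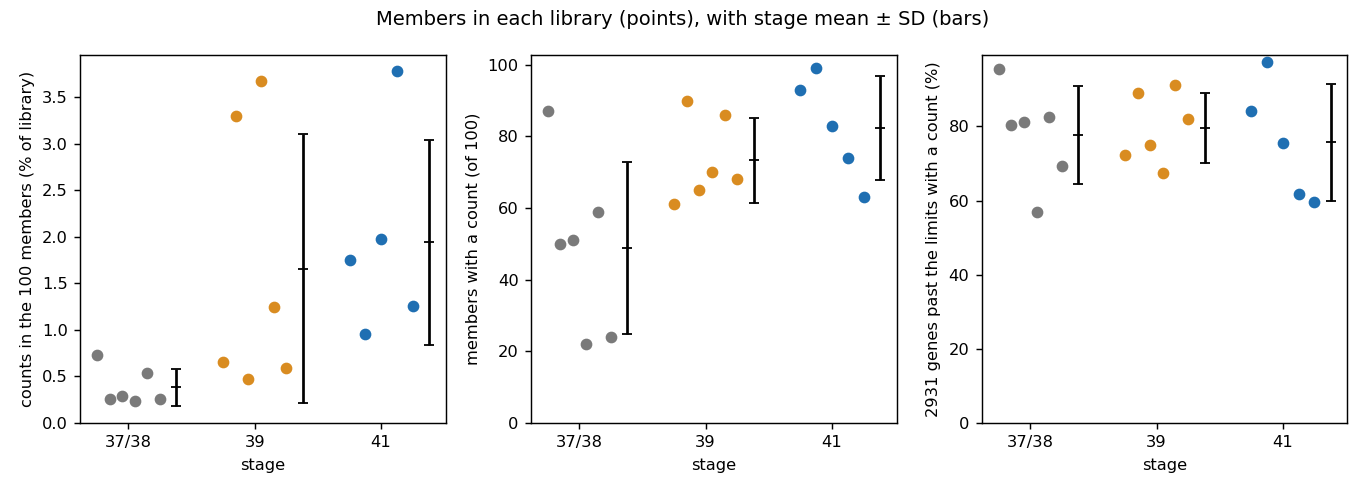
For each library, by stage (x axis), the percent of its counts in the 100 members (left), the number of members with a count (middle) and the percent of the 2931 genes past the count limits with a count (right), with the stage mean ± SD beside the points. The members' low values at stage 37/38 and high values at stage 41 follow from the rule. The right panel gives the 2931 genes, with stage means of 75.7% to 79.5%.

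Correlations between members were mostly weak. Deviations of each gene from its stage medians gave Pearson correlations over the 17 libraries with a median of 0.11 between members (4950 pairs, quartiles -0.07 and 0.31) and of 0.06 between the 2931 genes (quartiles -0.14 and 0.25). All points share libraries and depth, and these weak values are no finding. A correlation above 0.8 was held by 57 pairs of members, 1.15%, and by 0.0646% of all pairs. The deviations were taken from the stage medians that the rule used, so the 57 pairs are a description. A stage 37/38 median of 0 CPM was held by 41 members, beside 4.88% of the 2931 genes. Whether this bears on the 57 pairs was not tested. How many of the pairs lie among the 11 members high in stage 39 replicates 2 and 4, described next, was not worked out. The first principal component of the members' deviations held 27.4% of their variance. It set stage 39 replicates 2 and 4 and stage 37/38 replicate 1 (scores 0.43, 0.39 and 0.31) apart from stage 41 replicates 5 and 4 and stage 39 replicates 3 and 1 (scores -0.40, -0.34, -0.31 and -0.29).

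A set of 11 members was high in stage 39 replicates 2 and 4, beside 1.33% of the 2931 genes. High meant CPM + 10 at least 8-fold over the 17-library median in each. The 2 libraries were picked out after their values were seen. A low 17-library median makes 8-fold easier to reach, and members had counts in a median of 11 libraries, beside 13. The 11 are thus a description. These were the members ranked 4, 7, 10, 17, 36, 37, 49, 62, 80, 84 and 93. Together they took 2.63% and 2.55% of the counts of those libraries, which the definition of the set favours. They took 0.0034% to 0.36% in the other 4 stage 39 libraries. At stage 41 they took 0.671%, 0.265%, 0.937%, 0.0398% and 0.0435% in replicates 1 to 5, and at stage 37/38 0.0014% to 0.269%, the highest in replicate 1. Rank 17 shows the pattern, with 8042 and 6445 CPM in stage 39 replicates 2 and 4, 0, 0, 1639 and 108.1 CPM in replicates 1, 3, 5 and 6, and 1401, 959, 2714, 221 and 74.3 CPM in stage 41 replicates 1 to 5, against 0 to 897 CPM at stage 37/38. Replicate 5 of stage 39 thus also lay above 4 of the 5 stage 41 libraries. The rule applied without those libraries, an alternative added once the values were known, chose 77 of the 100 members again.

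Features of the assembly and of read assignment had no part in the rule. Of the 100, 43 belong to an assembly component with another gene, beside 31.3% of the 2931, and 37 had an expected count that was not whole in at least 1 library, beside 25.3%. Such counts can arise where reads were divided between sequences, so the level of such members is less certain. More than 1 transcript was listed for 11 members, beside 9.42%. The median summed count, which the rule limits from below, was 227.5 for the members and 229 for the 2931 genes. No test was made of these differences.

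Each title ends in a letter of unstated meaning. The letters pass through the stages in order from A to J and again from K to R. These stretches are here called runs, and both hold libraries of all stages. The labels do not say that the runs differ in time or batch. The rule did not use the letters, but it chose members by their values in these same libraries. The runs also differ in make-up, with 4 stage 39 and 2 stage 41 libraries in A to J and 2 and 3 in K to R. The choice can therefore favour 1 run, and the members' values in a comparison of runs, with stage in the fit, are a description. In edgeR's quasi-likelihood test of K to R against A to J, 0 of the 71 tested members and 0% of the 1985 genes were called at an adjusted p under 0.05, with 2 members and 49 genes at an unadjusted p under 0.05. With the count limits of the rule 0 of 100 members and 0% of 2931 genes were called, with 6 and 96 at an unadjusted p under 0.05. DESeq2 called 0 genes. With no count filter, edgeR made calls for 8 of 16101 genes (0.0497%), 1 of them a member. The fitted log2 fold change was above 0 in 32 of the 100 members, with a median of -0.71 beside -0.19 over the 2931 genes. The share of the 2931 genes above 0 was not worked out. The smallest p among members was that of rank 84 (log2 fold change -4.83, SE 1.26, edgeR adjusted p = 0.9348), picked out after its value was seen. It is a member of the set that was high in stage 39 replicates 2 and 4, both of which carry letters in A to J.

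Both runs took part in the choice of the members, so their values within a run are a description. The stage 41 median was above the stage 37/38 median in 83 of 100 members in K to R (3 libraries against 3) and in 92 in A to J (2 against 3), and in 75 members in both. All 3 medians rose in order in 56 members in K to R, in 57 in A to J and in 29 in both. When the rule was applied to 1 run alone, the lists of 100 genes shared 7 genes. They were drawn from 501 genes rising in order in A to J and 414 in K to R. The overlap to be had by chance was not worked out, so the 7 are not read as many or few. The 100 genes chosen in A to J had a median difference of 2.69 there. The count limits stayed those of all 17 libraries, and the libraries of K to R had no other part in that choice. In K to R the median difference of these 100 genes was 0.00 beside -0.11 over the 2931 genes. There 39 of the 100 were above 0 beside 37.3% of the 2931. The 100 genes chosen in K to R had a median difference of 3.57 there and of 0.19 in A to J, beside 0.13, and 56 were above 0 beside 55.0%. The rising order itself was met in the other run by 17 and 21 of the 100, beside 14.1% and 17.1% of the 2931 genes.

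The rule was also applied with 1 library left out in turn, with the count limits kept from all 17 libraries. Of the 100 members, 61 to 77 were chosen again. The fewest remained without stage 41 replicate 4 and the most without stage 39 replicate 2 or replicate 4. All 17 lists held 10 of the members, among them ranks 1 and 5, and 83 members were in at least 9 of the lists. Against the stage 37/38 median of the libraries used, the median of the chosen genes in a left-out stage 41 library was 1.55, 1.58, 1.34, 0.00 and 0.00 higher in replicates 1 to 5. Over the 2931 genes the same measure was 0.01, 0.38, -0.13, -0.37 and -0.38. That stage 37/38 median took part in the choice, which asks for it to be low. Against each gene's median over the other 16 libraries, the chosen genes stood at -0.13 ± 0.75 in the 6 left-out libraries of stage 37/38, 0.03 ± 0.61 in the 6 of stage 39 and -0.21 ± 0.75 in the 5 of stage 41 (± SD). The same values over the 2931 genes were 0.00 ± 0.46, -0.10 ± 0.53 and -0.16 ± 0.48. Differences between stages in these values were smaller than the spread between libraries.

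With 1 stage 41 and 1 stage 37/38 library left out together, neither end of the difference had a part in the stage medians or the ranking. The count limits stayed those of all 17 libraries, so both ends still had a part in them. Leaving out was done for all 30 pairs, which share libraries, and was chosen after the data were seen. The mean difference of the 100 chosen genes between the left-out libraries, stage 41 minus 37/38, had a median of -0.14 over the pairs on the log2(CPM + 10) scale, with a range of -1.32 to 0.91. Over the 2931 genes it was -0.00, with a range of -0.67 to 0.78. It was above 0 in 11 pairs and below 0 in 19, and above the value of the 2931 genes in 13 of 30. In a median pair 41 of the 100 genes were higher and 47.5 lower in the stage 41 library. The median share higher there was 42.4% over the 2931 genes, close to the 41 of 100. The share lower was not worked out for the 2931 genes. The 100 members themselves, in whose choice both libraries had taken part, had mean differences of 0.14 to 2.67 over the same pairs, all above 0, with a median of 1.77. Averaged by stage 41 library, the difference of the chosen genes was 0.20, 0.24, 0.08, -0.39 and -0.56 for replicates 1 to 5, beside 0.07, 0.39, -0.08, -0.34 and -0.30 for the 2931 genes.

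**Figure D5:**
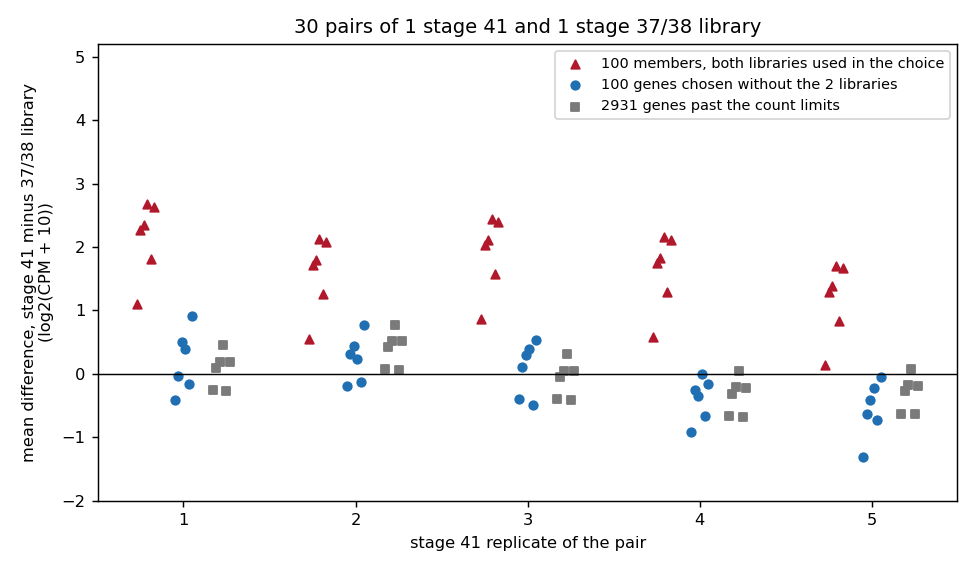
Mean difference between a stage 41 and a stage 37/38 library on the log2(CPM + 10) scale (y axis) for each of 30 pairs, by the stage 41 replicate of the pair (x axis). Triangles are the 100 members (all above 0, median 1.77) and squares the 2931 genes past the count limits of all 17 libraries. Circles are the 100 genes chosen from these 2931 without both libraries (median -0.14). Circles span -1.32 to 0.91, squares -0.67 to 0.78 and triangles 0.14 to 2.67, so the 3 kinds of point overlap across pairs. Within each pair the triangle lies above the circle and the square, which the choice of members favours.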

How the data were processed

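The deposited table holds expected counts per Trinity gene, collapsed by the authors from isoform counts, per the series' design text. Trimmomatic, Bowtie2 and RSEM are listed, with no version, in the submitters' processing notes. Assembly settings and filters: not given in the sources used here. Of all values above 0, 8.79% were not whole. Reads of near-identical genes could be divided by such estimation. The member rule was applied to the expected counts as deposited, with medians per stage of log2(CPM + 10). For edgeR 4.0.16 (R 4.3.3) the counts were rounded, filtered with filterByExpr at its default minimum count of 10 (1985 genes) and scaled by TMM. Each gene was fitted over all 17 libraries with 1 coefficient per stage, or stage plus letter run, and tested by quasi-likelihood with Benjamini-Hochberg adjustment. SEs are the fold change over the root of F. DESeq2 was 1.42.0. Shares have Wilson 95% intervals. The fits and the rule were checked for errors on simulated counts with large planted changes. For the rule the simulated spread was also smaller than in these data. Such checks do not tell how well either works on these data. Members and lists were chosen with earlier results of these data known. Identifiers were printed for ranks 1 and 2, per-library values for ranks 1 to 5 and for up to 5 members with a count in every library (there were 0), and stage medians for ranks 6 to 20. Alternatives were other scaling, filters, pseudocounts, tools, terms and left-out libraries.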

Additional observations from a re-analysis of the deposited data

Results flagged for a closer look

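In 27 groups of values, the gap between an extreme library and its nearest neighbour was set against the range of the stage. For normally distributed values chance gives a gap past the limit used in about 1 in 20 groups. Many of these groups are skewed CPM values with several at 0, so that rate does not hold for them. The 5 that were found are listed as a description. The total count was 748726 in stage 41 replicate 2 and 67838 to 204913 in the remaining 4. The members' median level was 5.51 on the log2(CPM + 10) scale in stage 37/38 replicate 1 and 3.32 to 3.92 in the remaining 5. The member ranked 2 had 26548.7 CPM in stage 41 replicate 4 and 609 to 3098 CPM in the remaining 4. The member ranked 4 had 282 CPM in stage 37/38 replicate 1 and 0 to 21.1 CPM in the remaining 5. The member ranked 5 had 265 CPM in stage 37/38 replicate 4, which rests on 19 counts, and 0 to 5.77 CPM in the remaining 5.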

How the results depend on the processing

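With edgeR's default filter, 0 genes were called in all stage comparisons and in the comparison of letter runs, also with size factors (RLE), the rule's count limits and each library left out, and for the stage comparisons with the letter run as a term. DESeq2 called 2 for stage 41 against 37/38 and 15 for stage 39 against 37/38. Without a filter edgeR called 8, 41 and 10 for stage 41 against 37/38, 39 against 37/38 and 41 against 39, and 8 for the runs. The replicate block also gave 0 calls in each stage comparison; same-numbered libraries did not deviate together (16 pairs, r of -0.15 to 0.08), so the numbers were not taken to pair samples. Of the members, 48 were chosen again with counts in at least 12 libraries, 52 with means for medians, 31 in A to J and 36 in K to R alone, 58 after thinning, and 61 to 77 with 1 library left out. Genes rising in order numbered 955 of 16127 without a filter, beside 500 of 2931 with the rule's count limits. The members' median difference of 2.62 was 4.94 with a pseudocount of 1, 1.59 with means, 1.91 in A to J, and 2.24 to 2.78 with 1 library left out. Against the stage 37/38 median, which the choice asks to be low, the left-out library averages were 1.13 at stage 39 and 0.90 at stage 41. Over the 2931 genes these averages were -0.13 and -0.10. With a pseudocount of 1 the averages of the chosen genes were 3.65 and 2.34. Since the choice favours a low reference, these averages are a description. The left-out pairs' -0.14 was 0.0219 with TMM scaling. The causes were not tested. In the shallowest library, a count of 0 allows levels up to 44.2 CPM.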
